A study of Mus musculus with 4 samples.

Results

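The 10 genes described here encode transcription factors that start, hold or refine hair cell fate in the inner ear. They are Atoh1, Pou4f3, Gfi1, Lhx3, Isl1, Barhl1, Rfx1, Rfx3, Insm1 and Ikzf2, and they were picked by symbol from the 23996 genes of the deposited table, with 1 row each. Cochlear epithelia of C57BL/6 mice were dissociated on postnatal day 7, cells were sorted by colour, and 4 RNA-seq libraries were made with a SMART-Seq v4 kit for very small amounts of RNA. All groups carried Sox2-CreER (a tamoxifen-dependent Cre recombinase under Sox2 control), Atoh1-HA (an HA-tagged Atoh1 transgene behind a CAG promoter and a loxP-flanked stop), Atoh1-eGFP (a green reporter of Atoh1 activity) and Rosa26-tdTomato (a Cre-dependent red reporter). Tamoxifen (0.20 mg/g) was injected into the peritoneum on postnatal day 3. Original hair cells (2 libraries) were sorted as eGFP+ cells, that is, hair cells without Cre history. New hair cells (2 libraries) were sorted as eGFP+/tdTomato+ cells, which had been through Cre recombination at the red reporter. The sort did not read out the Atoh1 transgene itself. Corn oil alone was used for control mice, and the labels do not say whether a library came from them, whether animals were pooled or whether the libraries of a group came from separate animals.

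Atoh1 is a basic helix-loop-helix factor that is necessary and, in young supporting cells, sufficient to begin hair cell differentiation. It pairs with E proteins, binds E-box sequences and switches on Pou4f3 and Gfi1, which carry differentiation and survival forward, while its own expression normally declines as hair cells mature. LIM homeodomain, BarH, RFX, Insm1 and Ikaros-family factors act alongside or after them, and Insm1 and Ikzf2 take part in giving outer hair cells their identity. Sox2 marks supporting cells, the epithelial cells around hair cells, so the comparison asked how the fate factors of hair cells made from supporting cells stood against those of hair cells made in normal development.

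The upstream sequences of the 4 factors that differed at least 2-fold between the groups, Atoh1, Gfi1, Isl1 and Lhx3, are shown because E-boxes are the sites that Atoh1 itself binds. Each is the 250 bases before the RefSeq transcription start (GRCm38.p6, the assembly of build mm10), read 5′ to 3′ on the gene's own strand, with every CANNTG (a palindromic pattern, so searched on both strands at once) in capitals.
Atoh1, chr6:64728875-64729124 (+ strand): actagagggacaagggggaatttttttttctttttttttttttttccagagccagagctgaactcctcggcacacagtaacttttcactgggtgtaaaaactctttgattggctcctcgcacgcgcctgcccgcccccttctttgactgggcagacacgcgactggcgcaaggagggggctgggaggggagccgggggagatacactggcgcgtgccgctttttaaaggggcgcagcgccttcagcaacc
Gfi1, chr5:107725806-107726055 (- strand): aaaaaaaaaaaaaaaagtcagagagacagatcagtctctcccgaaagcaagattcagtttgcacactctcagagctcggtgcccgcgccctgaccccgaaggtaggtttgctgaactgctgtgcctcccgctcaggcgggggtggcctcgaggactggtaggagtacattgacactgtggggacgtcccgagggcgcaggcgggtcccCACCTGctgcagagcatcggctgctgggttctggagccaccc
Isl1, chr13:116309689-116309938 (- strand): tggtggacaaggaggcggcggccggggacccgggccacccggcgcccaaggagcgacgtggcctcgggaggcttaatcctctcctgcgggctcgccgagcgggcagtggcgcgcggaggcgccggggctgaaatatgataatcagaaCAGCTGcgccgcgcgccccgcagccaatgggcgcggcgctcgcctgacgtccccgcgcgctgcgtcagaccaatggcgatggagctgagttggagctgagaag
Lhx3, chr2:26208250-26208499 (- strand): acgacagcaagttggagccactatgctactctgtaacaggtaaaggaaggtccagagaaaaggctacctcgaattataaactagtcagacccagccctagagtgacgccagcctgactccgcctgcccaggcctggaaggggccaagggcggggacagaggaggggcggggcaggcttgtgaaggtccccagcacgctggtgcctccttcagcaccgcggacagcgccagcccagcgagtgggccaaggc
The Gfi1 window held CACCTG 42 bases before the start and the Isl1 window held CAGCTG 103 bases before it. The Atoh1 and Lhx3 windows held no CANNTG. Of all 32851 promoter windows of this length 66.2% held CANNTG, and 13% held CAGCTG, so a match here is common and is only a description of these letters. Pou4f3 was left out of this search, so nothing is said of its upstream sequence. RefSeq windows were found for 7 of the other factors. Gfi1, Lhx3 and Barhl1 had a further start each. The second Gfi1 window held CAAGTG and the second Lhx3 window CATCTG, and both Barhl1 windows held CAGCTG. The windows of Rfx1 and Rfx3 held none.

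Expression was given as FPKM (fragments per kilobase of transcript, scaled to the mapped fragments of the library), with 1 value per gene and group. These are the authors' pooled values, so none has a replicate error, and no neighbouring levels could be set against a spread. The depth of each library is unknown. The column sums were 2165833 (original) and 244225 (new), 8.87-fold apart or 3.15 on the log2 scale, so each direction below was checked under 4 scalings. These were the values as deposited, trimmed-mean scaling, quantile normalization and equal sums. Trimmed-mean scaling and equal sums each multiplied every new value by a factor above 1. A gene higher as deposited therefore had to stay higher under both, and only quantile normalization could reverse it. The median log2 difference over all tested genes was -0.21, 0.06, 0.26 and 2.53 under them. The place of a gene within its own group, given as the percentage of all genes with a lower FPKM, does not depend on the scale between groups. Tested genes were the 9026 that were above 0 in both groups and reached 1 FPKM in one or both. Of these, 5056 had a higher place in the new group and 3968 a lower one, so a higher place was the more common case. All 10 factors were above 0 in both groups, and 7 were tested. Rfx1, Insm1 and Ikzf2 stayed under 1 FPKM in both groups.

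Of the 7 tested factors 3 were at least 2-fold lower in new hair cells on the log2(FPKM + 1) scale (Atoh1, Isl1 and Gfi1), where 34.9% of all tested genes were, and 1 was at least 2-fold higher (Lhx3), where 19.9% of all were. With a mean of at least 10 FPKM over both groups, 63.4% of tested genes were at least 2-fold lower and 15.6% at least 2-fold higher, so a lower value of an abundant factor was the usual case on this scale. Under that mean the shares were 16.3% lower and 22.6% higher. Barhl1 and Rfx3 reached 1 FPKM only in new hair cells, so their higher sign was fixed by the filter, and nothing is read from a count by sign or a median over the 7. Of all tested genes 1406 reached 1 FPKM only in the new group and 1253 only in the original group, and the list counts below carry the same limit. By sign alone 45.3% of all tested genes were higher and 54.7% lower as deposited, to be read beside those counts. With trimmed-mean scaling 4615 of the 9026 were higher and 4411 lower. After quantile normalization 5036 were higher and 3988 lower, and with equal sums 7011 were higher and 2015 lower. List counts under those scalings are to be read beside these. After Benjamini-Hochberg adjustment over all tested genes, the p-values of the authors' deposited table left 0 of the 7 factors and 0% of tested genes under 0.05, and the smallest adjusted p was 0.526. Before adjustment 1 factor, Gfi1, was under 0.05 in the authors' deposited table, where 8.83% of tested genes were lower and 0.554% higher with such a p. All differences below are therefore values that did not pass a test.

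**Figure D1:**
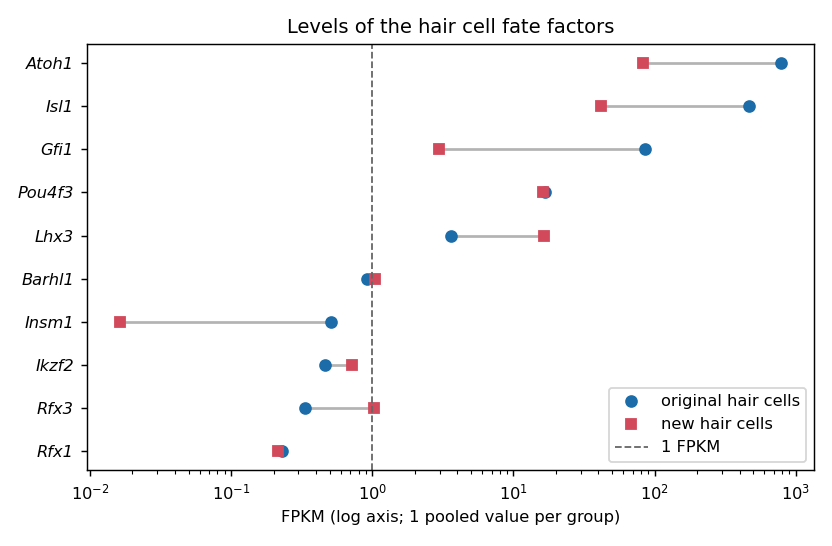
FPKM of the 10 factors (log axis) in original (circles) and new hair cells (squares), 1 pooled value per group, ordered by the level in original hair cells; the dashed line is 1 FPKM. Atoh1, Isl1 and Gfi1 lie far lower in new hair cells, Lhx3 lies higher and Pou4f3 is nearly level at 16.7 and 16.1 FPKM.

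Atoh1, the factor whose transgene was induced, had the highest level of the 10 in both groups. It stood at 791 in original against 83.4 FPKM in new hair cells, so the cells sorted for Cre history were 9.48-fold lower. For Atoh1 the authors' deposited table gave p = 0.186, and 0.664 after Benjamini-Hochberg adjustment. Its place within each group hardly differed, with 98.0% of genes lower in original and 97.8% lower in new hair cells, at ranks 479 and 524. The log2 difference of -3.23 as deposited was -2.89 with trimmed-mean scaling, -0.20 after quantile normalization and -0.10 with equal sums. The gene (chromosome 6, 64729146 to 64731235, + strand, mm10) is annotated with 1 transcript of 1 exon in GENCODE, and the table has 1 row for it, so transcripts of the transgene and of the resident gene could not be told apart. Sorting on the Atoh1 reporter selected cells with Atoh1 activity in both groups, which makes its level a weak check of the labels.

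Pou4f3 and Gfi1 act downstream of Atoh1 and parted ways between the groups. Pou4f3, a POU homeodomain factor needed for hair cell survival (chromosome 18, 42394597 to 42396093), stood at 16.7 in original against 16.1 FPKM in new hair cells. It was lower by 0.05 on the log2 scale as deposited and higher under the other 3 scalings, by 0.28, 1.55 and 3.02, and its place went from 88.0% to 92.5% of genes lower. For Pou4f3 the authors' deposited table gave p = 0.976. Gfi1, a zinc finger repressor that keeps hair cells alive and holds down neuronal genes in them (chromosome 5, 107716655 to 107725805), stood at 86.2 and 2.98 FPKM. That was 28.9-fold lower in new hair cells, and the authors' deposited table gave p = 0.0487, or 0.527 after Benjamini-Hochberg adjustment here. Gfi1 was lower under all 4 scalings, by 4.45 as deposited down to 1.67 with equal sums on the log2 scale, and its place went from 93.6% to 79.1% of genes lower. Within original hair cells Gfi1 was 5.16 times as high as Pou4f3, and within new hair cells Pou4f3 was 5.41 times as high as Gfi1. This reversal lies within each group and does not depend on the scaling between them. The annotation places another gene, A430072P03Rik, across the Gfi1 locus, and no source used here says whether counting used strand, so reads of the 2 genes may not be separable.

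The pair of LIM homeodomain factors also went opposite ways. Isl1, a factor of the early prosensory epithelium and of ear ganglion neurons (chromosome 13, 116298270 to 116309688), was second to Atoh1 in both groups, at 467 in original against 41.6 FPKM in new hair cells. The 11.2-fold lower level had p = 0.156 in the authors' deposited table. Its place was close, at 97.3% and 96.3% of genes lower, with ranks of 647 and 886. Its log2 difference shrank from -3.46 as deposited to -0.84 after quantile normalization and -0.34 with equal sums, and kept its sign under all 4 scalings. Lhx3, a hair cell LIM homeodomain factor (chromosome 2, 26200212 to 26208249), stood at 3.59 in original against 16.5 FPKM in new hair cells. It was 4.59-fold higher in new hair cells, and the authors' deposited table gave p = 0.185. Lhx3 was higher under all 4 scalings, by 1.93 to 5.00 on the log2 scale, and its place went from 79.1% to 92.6% of genes lower. As for Gfi1, another annotated gene, Gm27196, overlaps the Lhx3 locus. Isl1 was 130 times as high as Lhx3 within original hair cells and 2.53 times as high within new hair cells. Lhx3 passed both Gfi1 and, by a margin of 1.02-fold, Pou4f3 in the order of levels.

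**Figure D2:**
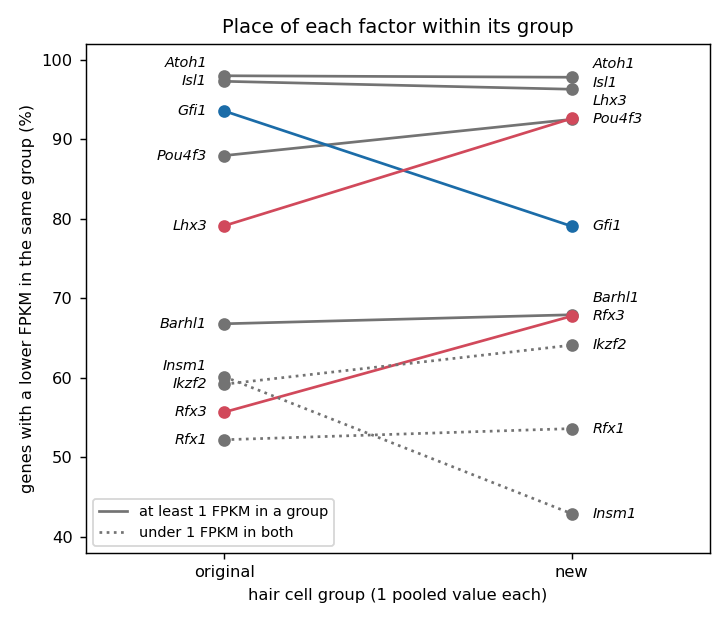
Place of the 10 factors within each group, as the percentage of the 23996 genes with a lower FPKM (vertical axis), in original and new hair cells (1 pooled value each); dotted lines mark factors under 1 FPKM in both groups, and red and blue mark tested factors with places over 10 percentage points higher or lower in new hair cells. Atoh1 and Isl1 nearly keep their place, Gfi1 goes from 93.6% to 79.1%, Lhx3 from 79.1% to 92.6% and Rfx3 from 55.7% to 67.8%; Rfx3 was over 1 FPKM only in new hair cells.

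Barhl1, a homeodomain factor that maintains hair cells in mice (chromosome 2, 28907680 to 28916440), was low in both groups, at 0.913 in original against 1.05 FPKM in new hair cells. Its log2 difference of 0.10 was above 0 under all 4 scalings. Set against the median of the tested genes, that difference was 0.31 as deposited and -0.11 with equal sums. Barhl1 reached 1 FPKM only in new hair cells, so the filter fixed its higher sign as deposited, and no direction is read from it. For Barhl1 the authors' deposited table gave p = 0.915.

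Rfx1 and Rfx3 encode RFX factors, which bind X-box sequences of ciliary genes and whose joint loss in mouse hair cells leads to loss of outer hair cells. Rfx3 (chromosome 19, 27761721 to 28011166) stood at 0.336 in original against 1.03 FPKM in new hair cells, 3.07-fold higher, and the authors' deposited table gave p = 0.317. On the log2(FPKM + 1) scale this was 0.60, since the added 1 outweighs such low values. The difference was above 0 under all 4 scalings. Rfx3 reached 1 FPKM only in new hair cells, so the filter fixed its higher sign as deposited, and no direction is read from it. Gm8412 and Gm20407 overlap the Rfx3 locus. Rfx1 (chromosome 8, 84066836 to 84096992) stood at 0.231 and 0.214 FPKM, with a p of exactly 1 in the authors' deposited table. Such a p of 1 was given to 13187 genes in the authors' deposited table, of which 13141 were under 1 FPKM in both groups. C330011M18Rik and Mir709 overlap the Rfx1 locus. Rfx1 was the only factor whose locus was shared with another row, that of Mir709, which was listed at 0 in both groups.

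Insm1 and Ikzf2, the factors tied to outer hair cell identity, were under 1 FPKM throughout. Insm1, a zinc finger factor that in mice keeps nascent outer hair cells from taking an inner hair cell course (chromosome 2, 146221997 to 146225018), stood at 0.507 in original against 0.0163 FPKM in new hair cells, and the authors' deposited table gave p = 1. Ikzf2, which encodes helios, a regulator of outer hair cell maturation in mice (chromosome 1, 69531210 to 69685960), stood at 0.465 and 0.722 FPKM, and the authors' deposited table gave p = 0.711. Gm29114, Gm29112 and Gm28112 overlap the Ikzf2 locus. Values this low cannot be set against a detection limit without counts. Neither gene was among those tested, so no direction is drawn from them.

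In the order of levels within a group, Atoh1 and Isl1 came first and second in both. Gfi1, Pou4f3 and Lhx3 followed in original hair cells, and Lhx3, Pou4f3 and Gfi1 in new hair cells. Of the 45 pairs of factors, 7 had their order reversed between the groups. Of the 21 pairs of tested factors 3 did, which were the pairs among Gfi1, Pou4f3 and Lhx3. That of Pou4f3 and Lhx3 rested on a 1.02-fold margin in new hair cells. Every other reversed pair involved Insm1 or Ikzf2, which were under 1 FPKM in both groups. The share of reversed pairs among all genes was not computed, so nothing is read from these counts. The 10 factors summed to 1367 FPKM (original) and 163.6 FPKM (new), 8.36-fold apart beside 8.87-fold for the whole table. The factors thus made up 0.0631% of the original and 0.067% of the new column sum. Within that sum Atoh1 held 57.9% and 51.0%, Isl1 34.2% and 25.4%, Gfi1 6.31% and 1.82%, Pou4f3 1.22% and 9.86%, and Lhx3 0.263% and 10.1%.

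**Figure D3:**
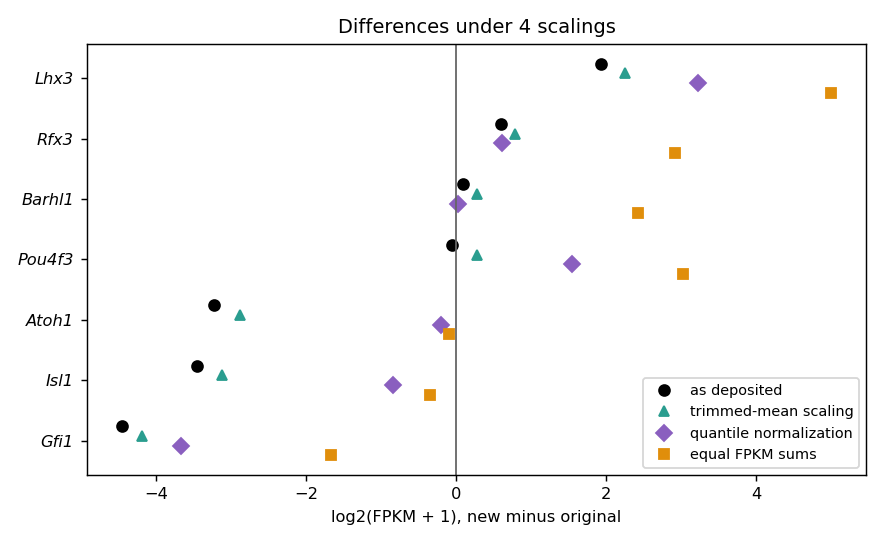
Difference in log2(FPKM + 1), new minus original (horizontal axis), of the 7 tested factors under 4 scalings of the groups (symbols), with 1 pooled value per group. Gfi1 lies at or below -1.67 and Lhx3 at or above 1.93 under each scaling, Atoh1 reaches -0.10 with equal sums, and Pou4f3 crosses 0.

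Relatives of the factors were mostly low or absent. Of 8 other RFX genes 2 were tested. Rfx7 stood at 91.2 in original against 0.33 FPKM in new hair cells, 276-fold lower and lower under all 4 scalings. For Rfx7 the authors' deposited table gave p = 0.0182, or 0.526 after Benjamini-Hochberg adjustment here. Rfxap, a subunit of the RFX complex at MHC class II promoters, stood at 4.10 and 3.59 FPKM. It was lower as deposited and higher under the other 3 scalings. Of 4 other Ikaros genes only Ikzf5 was tested, at 1.13 and 0.61 FPKM, lower except with equal sums. Ikzf4 was listed at 0 in original hair cells and stood at 0.055 FPKM in the new group. Rfx7 and Ikzf5 reached 1 FPKM only in the original group. None of the 5 closest relatives of Pou4f3, Barhl1, Gfi1 and Insm1 reached 1 FPKM in either group. Pou4f1 stood at 0.194 and 0.011 FPKM, Insm2 at 0.0308 and 0.00598 FPKM, and Gfi1b was listed at 0 in both. Among 11 other proneural helix-loop-helix genes 2 were tested and 5 were listed at 0 in both groups, Neurod1 among them. Nhlh1 stood at 0.665 and 3.77 FPKM, 5.67-fold higher in new hair cells and higher under all 4 scalings. Atoh8 stood at 1.29 and 0.000777 FPKM. Nhlh1 reached 1 FPKM only in the new group and Atoh8 only in the original group.

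LIM homeodomain relatives and cofactors were tested in 8 of 16 cases. Of these 8, 3 (Ldb2, Lmo2 and Lmo3) reached 1 FPKM only in the new group and 1 (Lhx5) only in the original group, so their sign was fixed by the filter and the list is given gene by gene. Ldb1, the adaptor through which LIM homeodomain factors form complexes, stood at 2.13 in original against 6.85 FPKM in new hair cells. Lmo4, a LIM-only protein that competes for that adaptor, stood at 746 and 17.5 FPKM. For Lmo4 the authors' deposited table gave p = 0.0448, or 0.526 after Benjamini-Hochberg adjustment here. Within original hair cells Lmo4 was 350 times as high as Ldb1, and within new hair cells 2.55 times. Lmo1 stood at 97.1 and 87.5 FPKM, lower as deposited and higher under the other 3 scalings, and was thereby 5.01 times as high as Lmo4 in new hair cells. Ldb2 stood at 0.999 and 2.64 FPKM, Lmo3 at 0.84 and 1.74 FPKM, Isl2 at 2.25 and 3.80 FPKM and Lmo2 at 0.00125 and 1.63 FPKM, each higher under all 4 scalings. Lhx5 was lower under all 4, at 1.54 and 0.09 FPKM.

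E proteins, the binding partners of Atoh1, were all tested. Tcf4 stood at 108 in original against 3.03 FPKM in new hair cells. For Tcf4 the authors' deposited table gave p = 0.0111, or 0.526 after Benjamini-Hochberg adjustment here. Tcf12 stood at 33.7 and 6.45 FPKM, lower except with equal sums, and its locus was shared with another row. Tcf3 stood at 0.536 and 6.46 FPKM, higher under all 4 scalings, and reached 1 FPKM only in the new group. Tcf4 was 201 times as high as Tcf3 within original hair cells, and Tcf3 was 2.13 times as high as Tcf4 within new hair cells.

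The LSD1-CoREST corepressors, which zinc finger repressors of the Gfi1 and Insm1 kind recruit, were tested in 7 of 8 cases, with 1 higher and 6 lower in the new group and a median of -2.69. With equal sums 4 were higher and 3 lower. Hmg20b stood at 595 and 32.8 FPKM, and the authors' deposited table gave p = 0.0835. Rcor1 stood at 455 and 3.002 FPKM, 152-fold lower, and the authors' deposited table gave p = 0.0214. Both were lower under all 4 scalings.

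**Figure D4:**
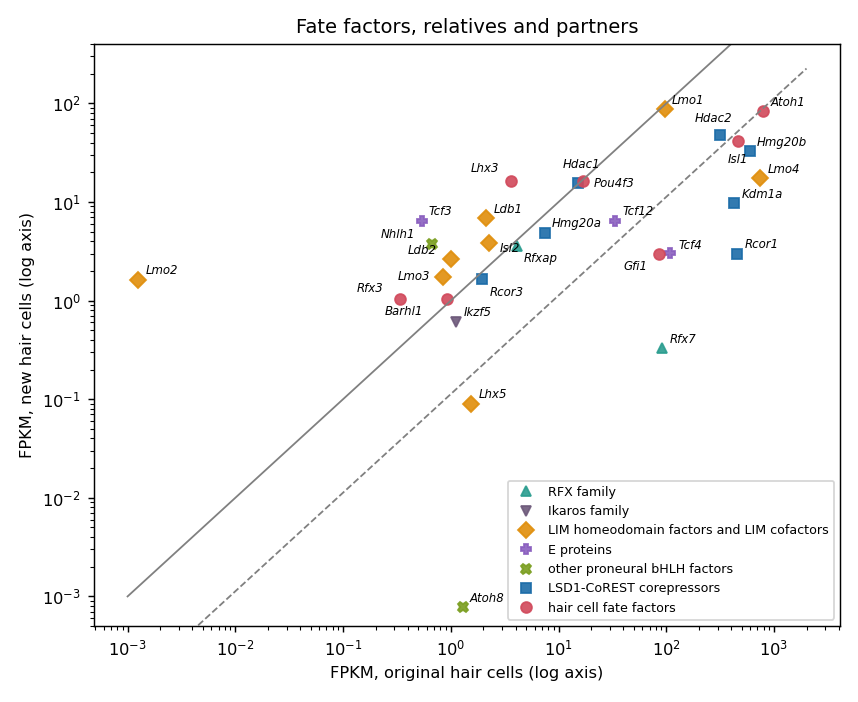
FPKM in original (horizontal) and new hair cells (vertical, both log axes) of the tested fate factors, their relatives, E proteins and corepressors, 1 pooled value per group; the solid line marks equal FPKM and the dashed line equal share of the FPKM sum. Gfi1, Tcf4, Rcor1, Lmo4 and Rfx7 lie below both lines, Lhx3, Ldb1 and Tcf3 lie above both, and Atoh1 and Isl1 lie next to the dashed line.

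Genes linked to Atoh1 or Pou4f3 in hair cells were tested in 9 of 11 cases, with 2 higher and 7 lower in the new group and a median of -3.37. With equal sums 4 were higher and 5 lower, and 1 of the lower genes reached 1 FPKM only in the original group. Hes6, a helix-loop-helix factor activated by Atoh1, stood at 120 in original against 318 FPKM in new hair cells, higher under all 4 scalings. It was 6.59 times lower than Atoh1 within original hair cells and 3.82 times as high as Atoh1 within new hair cells. Rasd2, a small G protein, stood at 1291 and 6.97 FPKM, 185-fold lower and lower under all 4 scalings. For Rasd2 the authors' deposited table gave p = 0.003, or 0.526 after Benjamini-Hochberg adjustment here.

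Genes of hair cell subtypes that Insm1 and Ikzf2 help to set apart were read beside them. Of 8 tested outer hair cell genes 2 were higher in the new group and 6 lower (median -2.62), and with equal sums 4 were higher and 4 lower. Ocm, a calcium-binding protein, stood at 26071 and 592 FPKM, lower under all 4 scalings. Sri, another calcium-binding protein, stood at 156 and 24.3 FPKM, lower except with equal sums. Among the genes lower as deposited, 1 outer and 1 inner hair cell gene reached 1 FPKM only in the original group. Of 6 tested inner hair cell genes 1 was higher and 5 lower, with a median of -6.39, and the split was the same under the other 3 scalings. Fgf8, a secreted growth factor, stood at 5068 and 32.0 FPKM, and Calb2, a calcium buffer whose locus was shared with another row, at 2148 and 43.5 FPKM. Tbx2, a factor that sets inner hair cell identity in mice, was the higher one, at 5.30 and 9.86 FPKM. Of 4 tested neuronal genes, read because Gfi1 holds such genes down, 1 was higher and 3 lower, with Nefl at 3214 and 2.70 FPKM and Stmn3 at 4.24 and 2.83 FPKM. With equal sums 3 were higher and 1 lower.

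Markers of cell types were checked in both groups, and in bulk samples fewer cells of a type and less RNA per cell cannot be told apart. Some lists share genes and are not separate checks. Of the tested hair cell markers, Otof and Calb2 were also counted as inner hair cell genes above. Of the tested spiral ganglion neuron markers, Nefl, Nefm and Snap25 were also counted as neuronal genes. All 8 hair cell markers were present in both groups, summing to 17681 in original against 534 FPKM in new hair cells, 7 of them lower in new hair cells as deposited and 6 with equal sums. Pvalb stood at 9074 and 123 FPKM and Lhfpl5 at 2595 and 59.5 FPKM. Supporting cell markers summed to 20797 and 5089 FPKM. Of 9 tested 5 were higher and 4 lower as deposited, and all 9 were higher after quantile normalization or with equal sums. Most of all tested genes were also higher under both of these scalings. S100a1 stood at 15179 and 3617 FPKM and Fbxo2 at 5421 and 667 FPKM. These 2 genes, both lower as deposited, made up most of both sums, so the sums do not describe the list. The 5 higher ones were Sox9, Hes5, Jag1, Fgfr3 and Epyc. Epyc, whose locus was shared with another row, stood at 97.0 and 725 FPKM, and Fgfr3 at 2.57 and 19.6 FPKM. Mesenchyme markers summed to 2033 and 413 FPKM, 2 of 7 tested being higher, with Otor at 1383 and 0.226 FPKM and Lum at 89.4 and 375 FPKM. Spiral ganglion neuron markers summed to 3521 and 77.9 FPKM, 2 of 5 tested being higher. Gata3, which hair cells and supporting cells express too, stood at 299.6 and 66.9 FPKM. Prph was not tested, at 0.377 FPKM in original hair cells and listed at 0 in the new group. Schwann cell and glia markers summed to 1071 and 307 FPKM, 3 of 6 tested being higher, with Cnp at 983 and 3.998 FPKM and Fabp7 at 72.4 and 278 FPKM. Macrophage and immune markers summed to 6.13 and 73.4 FPKM, 2 of 3 tested being higher, with Tyrobp at 3.24 and 71.7 FPKM, C1qb at 2.08 and 0.364 FPKM and Ptprc, which defines blood leukocytes, listed at 0 in both groups. Globin rows summed to 10.3 FPKM in original hair cells, nearly all of it in a row shared by Hbb-b1 and Hbb-bs, and were listed at 0 in new hair cells. Of the tested markers, 1 gene each of mesenchyme, spiral ganglion neuron and macrophage reached 1 FPKM only in the new group, while 2 mesenchyme, 1 Schwann cell and 1 macrophage gene did so only in the original group. The part of these other cell types in the differences of the fate factors was not tested.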

How the data were processed

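The labels describe 4 RNA-seq libraries, 2 per group. The submitters' processing notes name build mm10 and the tools TopHat, Trimmomatic and CASAVA 1.8. What computed expression and p-values is not stated by any source used here. For each gene the deposited table held 1 FPKM value per group and an unadjusted p-value per gene, per the file headers. The authors thus pooled or averaged the libraries of a group, and depth per library is unknown. A low-input kit amplifies little RNA, which limits the precision of low values. Starts of loci were raised by 1 to count from 1, and the deposited log2 ratios of the factors equalled those of the FPKM columns within 0.01.

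Genes above 0 in both groups that reached 1 FPKM in one or both were compared as log2(FPKM + 1) of new minus original, which understates the change of low genes. Folds of single genes are plain ratios. In all 3 rows carried no comparison by the authors and were left out of tested genes. Benjamini-Hochberg adjustment of the p-values ran over these genes, with a threshold of 0.05. Tests across libraries (limma) could not be fitted without a value per library. The members and 18 other gene lists were chosen with earlier results of these data known. Named genes are the 10 members, the tested relatives, LIM cofactors and E proteins, the 2 genes of highest mean FPKM in every other list, and Tbx2 and Neurod1. Gfi1b, Prph, Ptprc and the genes that overlap a factor's locus were named after their values or places were seen. Overlapping genes and exons come from GENCODE M21. The procedures were tested on simulated data. Software was pandas 2.3.3, numpy 2.4.6 and matplotlib 3.10.9 under Python 3.11.15.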

Additional observations from a re-analysis of the deposited data

How the results depend on the processing

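No leave-one-out value could be had, and no paired analysis was possible because the columns carry no library or replicate number. The count of factors with an adjusted p under 0.05 was 0 with no filter, with a minimum of 5 FPKM, and when genes at shared loci were left out. The pseudocount and the scalings cannot change that count, since the p-values are the authors'. The number at least 2-fold higher, 1 as reported, was 2 with a pseudocount of 0.1 or quantile normalization and 4 with equal sums. The number at least 2-fold lower, 3 as reported, was 1 after quantile normalization and 1 with equal sums. Over all tested genes the same 2 scalings gave 2870 and 6278 higher and 2362 and 1354 lower, against 1793 and 3149 as reported. With a filter of 5 FPKM, 1 factor was higher, since Barhl1 and Rfx3 dropped out, and the median of the factors was -3.23, where that of all tested genes was -1.11. The sign of Barhl1 and Rfx3, which reached 1 FPKM only in new hair cells, was fixed by the filter and enters these counts and medians. The median of the factors, -0.05 on the main scale, was 0.28 with trimmed-mean scaling, 0.032 after quantile normalization and 2.43 with equal sums. Pou4f3 turned to higher in new hair cells under these scalings, at 0.28, 1.55 and 3.02. The other 6 tested factors kept their sign under all 4 scalings. For Lhx3, Barhl1 and Rfx3, which were higher as deposited, only quantile normalization could have changed it. Leaving out rows that share a locus changed no value of a tested factor. Only the values per group were used, so how far the libraries of a group differed is unknown.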
